A study of Mus musculus with 2 samples.

Results

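The 30 genes described here serve DNA replication and cell division: 16 act mainly in mitosis (Mki67, Top2a, Cdk1, Ccnb1, Ccnb2, Ccna2, Birc5, Ube2c, Cenpf, Tpx2, Aurka, Aurkb, Bub1, Nusap1, Cdc20 and Plk1), 12 act in S phase (Pcna, Mcm2 to Mcm7, Rrm1, Rrm2, Tyms, Hells and Uhrf1), and Stmn1 and Hmgb2 were kept apart. They were chosen by name as known cell cycle genes, with earlier results of these data known, and make up 30 of the 27998 genes in the tables. Expression was counted in single cells of whole, dissociated submandibular salivary glands of adult mice 12 weeks old, with the 10x Genomics 3' chemistry, with 1 library for the p63 wild-type genotype and 1 for p63 KO. The strain, the means and time of p63 removal and any pooling of glands are not stated in the labels. The labels name the source as epithelial progenitor cells, but the libraries also held cells with endothelial, macrophage, natural killer (NK) and red cell markers. The title of the series ties p63, a transcription factor of basal epithelium, to the ability of salivary progenitors to proliferate, which is the question these genes address.

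Cells copy their genome in S phase and separate the copies in mitosis. Replication factors are made ahead of S phase, when E2F transcription factors are released from repressors of the retinoblastoma family, and many of these proteins also serve DNA repair outside the cell cycle. Mitotic genes are switched on later by the B-Myb and FoxM1 factors together with the MuvB proteins, and their messages and proteins are removed as division ends. In the adult salivary gland most cells divide rarely, and dividing cells are known among the ducts and the acini.

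Promoters of these genes are known for short sequence elements: the CHR, a docking site of MuvB, the CCAAT box, which NF-Y binds, and E2F sites. RefSeq promoter windows (GRCm38.p6, 250 bases before to 50 after the annotated start) were matched for 13 of 16 mitotic and 11 of 12 S-phase members; Ccna2, Tpx2, Aurkb and Mcm4 had no entry. The strings searched on both strands were TTTGAA and TTCGAA for the CHR, CCAAT for the CCAAT box, and TTTCCCGC, TTTCGCGC, TTTGCCGC and TTTGGCGC for E2F. CHR strings were in 10 of 13 mitotic windows (76.9%), in 2 of 11 S-phase windows (18.2%) and in 19.4% of all 27025 windows. E2F strings were in 1 of 13 mitotic windows (7.69%, Cdk1), in 5 of 11 S-phase windows (45.5%; Mcm3, Mcm5, Mcm6, Mcm7 and Hells) and in 2.32% of all. CCAAT strings were in 11 of 13 (84.6%) and 9 of 11 (81.8%), against 37.9% of all. A match describes letters in the window and shows no binding.

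The windows below are examples of these elements in genes that differed between the libraries. Ccnb2, Ube2c and Cdc20 are mitotic genes with a CHR string, over 20-fold lower in the KO library. Mcm5, Mcm6 and Hells are S-phase genes with E2F strings that were lower, and Pcna was higher. These examples do not stand for all members, since the strings did not sort the genes by direction. Mcm7 has E2F strings and was higher, while Rrm2 and Uhrf1 have none in the window searched and were lower. Mcm7 and Uhrf1 each had 2 promoter entries, of which only the first was searched. Ccnb1, Birc5 and Nusap1 have no CHR string and were also lower. Capitals mark the matched strings on either strand (TTCAAA and ATTGG are CHR and CCAAT read from the other strand); in Ube2c 2 CCAAT strings overlap on opposite strands, and in Mcm5 and Mcm6 2 E2F strings overlap.
Ccnb2 promoter, chr9:70421505-70421804, minus strand: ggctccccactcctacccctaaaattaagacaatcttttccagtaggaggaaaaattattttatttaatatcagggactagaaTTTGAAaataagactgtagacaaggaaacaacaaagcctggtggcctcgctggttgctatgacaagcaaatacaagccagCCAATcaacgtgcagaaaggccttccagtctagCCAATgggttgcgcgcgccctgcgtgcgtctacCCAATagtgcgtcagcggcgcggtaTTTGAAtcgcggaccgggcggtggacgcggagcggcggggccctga
Ube2c promoter, chr2:164769679-164769978, plus strand: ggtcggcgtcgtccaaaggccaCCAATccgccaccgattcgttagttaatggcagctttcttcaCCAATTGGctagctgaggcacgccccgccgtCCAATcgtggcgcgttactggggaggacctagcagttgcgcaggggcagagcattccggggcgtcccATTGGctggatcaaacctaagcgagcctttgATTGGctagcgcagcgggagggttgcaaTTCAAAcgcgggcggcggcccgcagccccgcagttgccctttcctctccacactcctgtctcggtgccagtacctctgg
Cdc20 promoter, chr4:118437294-118437593, minus strand: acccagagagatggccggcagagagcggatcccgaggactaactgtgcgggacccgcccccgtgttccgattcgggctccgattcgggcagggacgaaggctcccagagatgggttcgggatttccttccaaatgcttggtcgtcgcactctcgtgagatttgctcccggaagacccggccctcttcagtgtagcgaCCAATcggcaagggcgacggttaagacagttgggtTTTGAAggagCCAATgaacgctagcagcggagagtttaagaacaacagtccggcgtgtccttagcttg
Pcna promoter, chr2:132253131-132253430, minus strand: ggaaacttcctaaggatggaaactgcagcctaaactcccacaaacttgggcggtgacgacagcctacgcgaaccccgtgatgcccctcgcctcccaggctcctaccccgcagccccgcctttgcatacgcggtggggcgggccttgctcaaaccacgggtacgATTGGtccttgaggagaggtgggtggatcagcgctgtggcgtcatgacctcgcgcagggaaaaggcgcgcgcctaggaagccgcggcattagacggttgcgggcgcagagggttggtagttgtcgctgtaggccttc
Mcm5 promoter, chr8:75109259-75109558, plus strand: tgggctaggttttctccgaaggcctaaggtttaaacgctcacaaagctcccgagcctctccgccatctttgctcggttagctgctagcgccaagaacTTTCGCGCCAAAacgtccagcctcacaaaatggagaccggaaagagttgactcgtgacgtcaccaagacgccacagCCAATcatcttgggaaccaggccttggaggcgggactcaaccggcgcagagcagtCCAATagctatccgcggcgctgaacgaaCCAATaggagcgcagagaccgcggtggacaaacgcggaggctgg
Mcm6 promoter, chr1:128359656-128359955, minus strand: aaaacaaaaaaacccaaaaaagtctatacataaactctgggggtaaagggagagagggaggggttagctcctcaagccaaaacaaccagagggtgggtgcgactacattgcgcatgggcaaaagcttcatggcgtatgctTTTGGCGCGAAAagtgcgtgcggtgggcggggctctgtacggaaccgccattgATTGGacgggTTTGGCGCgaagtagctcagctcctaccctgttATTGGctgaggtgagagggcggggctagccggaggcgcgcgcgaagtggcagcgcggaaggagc
Hells promoter, chr19:38930740-38931039, plus strand: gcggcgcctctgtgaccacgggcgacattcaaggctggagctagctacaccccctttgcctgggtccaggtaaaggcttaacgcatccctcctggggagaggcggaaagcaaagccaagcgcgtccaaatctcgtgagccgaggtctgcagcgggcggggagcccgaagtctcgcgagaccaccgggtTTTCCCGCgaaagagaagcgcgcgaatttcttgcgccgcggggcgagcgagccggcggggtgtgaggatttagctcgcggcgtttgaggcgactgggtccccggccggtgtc
In Ube2c and Cdc20 the CHR string begins 29 and 18 bases before the start. The CCAAT strings of Ube2c all lie upstream of it, and those of Cdc20 lie on either side, 53 and 8 bases before the start. In Ccnb2 a CHR string begins 5 bases after the start. The Pcna window holds 1 CCAAT string and none of the CHR and E2F strings, while Mcm6 holds 3 E2F strings, which begin 110, 106 and 47 bases before the start.

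The libraries differed in depth, which bears on every value. Of 1970 wild-type and 4726 KO barcodes, 1663 (84.4%) and 2423 (51.3%) passed a filter of 200 or more genes and less than 20% mitochondrial UMIs, which are tags that each mark 1 captured molecule. Kept cells had medians of 3406 and 2088 UMIs and of 5.15% and 6.58% mitochondrial UMIs, and the libraries had 11 barcode sequences in common. Trp63, which encodes p63, was counted 149 times in wild-type and 20 times in KO cells. As 3' tags, these counts test the genotype only where the deletion reached the 3' end, which is not stated. Levels are CPM (UMIs per 1000000 UMIs) with exact Poisson intervals, ratios carry the exact conditional interval, and shares of cells carry exact binomial intervals, all at 95%. With 1 library per genotype there was no test and no replicate check, and the intervals cover counting error only. In a library, fewer cells expressing a gene and less RNA per cell give the same lower level, so counts per cell are given beside the levels.

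The mitotic genes were lower in the KO library almost as a body, while the S-phase genes as a sum, on plain totals, stood much nearer to their wild-type level. The 16 mitotic members had 1107 wild-type and 59 KO UMIs, 140 CPM (131 to 148) against 8.59 CPM (6.54 to 11.1), which is 16.3-fold lower in the KO library (12.5 to 21.5). With every cell thinned to 1000 UMIs the fold was 18.8 (11.3 to 33.4). The 12 S-phase members had 1046 UMIs (132 CPM, 124 to 140) in wild-type and 791 (115 CPM, 107 to 123) in the KO library, a level 1.15-fold lower (1.04 to 1.26). The S-phase sum is not stable in direction: without the basal duct-like cells defined below, it was 1.10-fold higher in the KO library (0.995 to 1.23), an interval that includes no difference, whereas the mitotic sum was then still 10.1-fold lower (7.75 to 13.5).

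The ratio interval lay wholly beyond 2-fold lower in the KO library for 13 of 16 mitotic members, for 3 of 12 S-phase members and for Stmn1, and beyond 2-fold higher for 0 of 30. Of all 17120 genes with a UMI, 2.07% were beyond it in the lower and 4.89% in the higher direction. Where at least 50 UMIs over both libraries were asked for as well, a rule of size that stands in for a test, 24 of the 30 had enough UMIs and 13 passed (9 mitotic, 3 S-phase and Stmn1), against 2.49% of 10285 genes in the lower and 6.72% in the higher direction. The mitotic members not beyond 2-fold were Mki67, Aurka and Plk1.

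**Figure D1:**
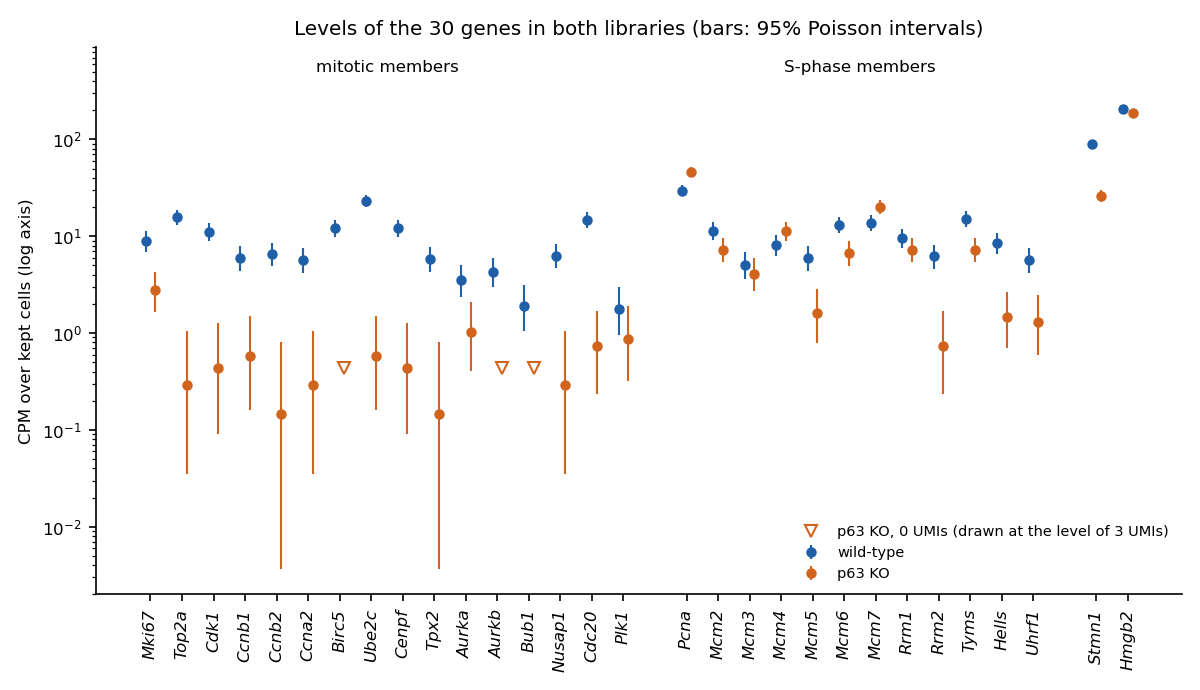
Level of each of the 30 genes in CPM (log axis) (wild-type blue, p63 KO orange, 1 library each), with 95% Poisson intervals; open triangles mark genes with 0 UMIs, drawn at the level of 3 UMIs. Mitotic members sit far lower in the KO library, S-phase members fall on both sides, with Pcna and Mcm7 above wild-type.

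Among the mitotic members, the cyclin and kinase genes that start mitosis were nearly lost from the KO library. Cdk1, the kinase that drives entry into mitosis, had 88 wild-type and 3 KO UMIs, 25.4-fold lower (8.42 to 126). Its partners Ccnb1 and Ccnb2, the B-type cyclins, had 47 and 4 UMIs (10.2-fold lower, 3.72 to 38.9) and 52 and 1 (45.1-fold lower, 7.74 to 1813). Ccna2, the A-type cyclin of S phase and early mitosis, had 45 and 2 UMIs, 19.5-fold lower (5.09 to 166). These wide intervals reflect KO counts of 1 to 4. Plk1, a kinase of mitotic entry and spindle assembly, had too few counts for a direction: 14 UMIs against 6, 2.02-fold lower with an interval from 0.730 to 6.42.

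Genes of the chromosomes and the spindle followed the cyclins. Top2a, the topoisomerase that untangles sister DNA (GRCm38 chromosome 11, 98992943 to 99024189, minus strand), had 125 wild-type and 2 KO UMIs, 15.8 CPM against 0.291 CPM, or 54.2-fold lower (14.7 to 452). Birc5 (survivin) and Aurkb, which work together in the chromosomal passenger complex, had 96 and 34 wild-type UMIs and 0 in the KO library. Against a floor of 3 counts their levels were 27.7-fold and 9.82-fold lower, and their ratio intervals begin at 22.1 and 7.56. Bub1, a kinase of the spindle checkpoint, was also at 0, after 15 wild-type UMIs, 4.33-fold lower against that floor, with an interval that begins at 3.11.

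Cenpf, a kinetochore protein, had 96 and 3 UMIs (27.7-fold lower, 9.21 to 137), and the spindle proteins Tpx2 and Nusap1 had 46 and 1 (39.9-fold, 6.81 to 1608) and 50 and 2 (21.7-fold, 5.69 to 184). Aurka, the kinase that Tpx2 activates at the spindle, had 28 and 7 UMIs (3.47-fold lower, 1.48 to 9.40), an interval that overlaps that of Tpx2. Named near-copies of Ccnb1, Ccnb2, Tyms, Pcna and Stmn1 exist in the GENCODE annotation, so a share of their reads may be uncertain. Of these only Pcna-ps2 was in the tables, with 6 wild-type and 16 KO UMIs.

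Ube2c and Cdc20 act at the end of mitosis. Ube2c, the ubiquitin-conjugating enzyme of the anaphase-promoting complex (chromosome 2, 164769898 to 164778822, plus strand), had the most wild-type UMIs of the 16 mitotic members, 184 in 68 cells and up to 18 in 1 cell, and 4 UMIs in 3 KO cells, 39.9-fold lower (15.3 to 148). Cdc20, which activates that complex, had 117 and 5 UMIs, 20.3-fold lower (8.44 to 63.6). Both promoters, printed above, hold a CHR string near the start.

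Mki67, the source of the Ki-67 antigen used to count dividing cells (chromosome 7, 135689784 to 135716361, minus strand), had the most KO UMIs of the mitotic members. It had 70 wild-type and 19 KO UMIs, 8.83 CPM (6.88 to 11.2) against 2.76 CPM (1.66 to 4.32), 3.19-fold lower (1.90 to 5.61). Of the 19 KO UMIs, 13 were in 8 of 233 macrophage-like cells, with up to 4 in 1 cell. None of these 8 cells held another mitotic member, as was so for every kept KO cell, whereas both wild-type macrophage-like cells with Mki67 did. The macrophage-like Mki67 level was 33.6 CPM (17.9 to 57.4) in KO and 15.6 CPM (3.21 to 45.5) in wild-type cells, with overlapping intervals.

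The S-phase members split by gene, and their sum on plain totals joins differences in opposite directions: 7 of 12 intervals lay below wild-type, 2 above (Pcna and Mcm7) and 3 included no difference. The share of all genes with intervals wholly below or above wild-type was not computed, so these counts have no background beside them. Pcna, the sliding clamp of DNA polymerases and also a DNA repair factor (chromosome 2, 132249162 to 132253314, minus strand), had 234 wild-type and 317 KO UMIs, 29.5 CPM (25.8 to 33.5) against 46.1 CPM (41.2 to 51.5), 1.56-fold higher in the KO library (1.32 to 1.86). It stayed higher with TMM scaling, at 1.29-fold (1.09 to 1.54), and with a total without the 50 most abundant genes, at 1.35-fold (1.14 to 1.61). Pcna was detected in 12.3% of wild-type and 11.9% of KO cells although KO cells were shallower. Without Pcna, Mcm4 and Mcm7, a choice made after their values were seen, the KO over wild-type ratio of the other 9 members was 0.469 (0.404 to 0.542).

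The 6 Mcm genes encode the subunits of 1 ring, the replicative helicase, but their KO levels moved apart. Mcm5 was lowest, with 47 wild-type and 11 KO UMIs, 3.70-fold lower (1.89 to 7.92). Mcm6 had 104 and 46 UMIs (1.96-fold lower, 1.37 to 2.84) and Mcm2 had 90 and 50 (1.56-fold lower, 1.09 to 2.25). Mcm3 (40 and 28 UMIs) gave 1.24-fold lower (0.745 to 2.08), and Mcm4 (65 and 77 UMIs) 1.37-fold higher (0.970 to 1.93); both intervals include no difference. Mcm7 had 109 and 138 UMIs and was 1.46-fold higher (1.13 to 1.90), but with TMM scaling its 1.21-fold interval (0.933 to 1.57) includes no difference. The intervals of Mcm5 and Mcm7 do not overlap under the same scaling. The 6 genes share no common direction in these libraries.

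Among the nucleotide enzymes and chromatin factors, 3 genes had intervals beyond 2-fold lower. Rrm2, the cell-cycle-limited subunit of ribonucleotide reductase, had 49 wild-type and 5 KO UMIs, 8.49-fold lower (3.40 to 27.3), while Rrm1, the subunit present through the cycle, had 76 and 50 and stood at 1.32-fold lower (0.910 to 1.92). Tyms, which makes thymidylate, had 120 and 50 UMIs, 2.08-fold lower (1.48 to 2.95). Hells, a chromatin remodeller needed for DNA methylation, had 67 and 10 (5.80-fold lower, 2.97 to 12.7), and Uhrf1, which directs maintenance methylation, had 45 and 9 (4.33-fold lower, 2.09 to 10.1).

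The number of members detected within each cell also differed between the libraries. At least 2 different mitotic members were found in 82 of 1663 wild-type cells (4.93%, 3.94 to 6.08%) and in 0 of 2423 KO cells, where a count of 0 allows up to 0.124% by a floor of 3 counts (exact binomial upper bound 0.152%). Among the 2303 KO barcodes left out by the filter, 3 (0.130%) held as many. After thinning to 1000 UMIs, 38 wild-type cells (2.29%) and 0 KO cells remained above this count. The richest wild-type cell held 14 of the 16 mitotic members, and no KO cell held more than 1. A lone mitotic member was found in 90 wild-type and 50 KO cells. Granular convoluted tubule-like cells, a differentiated secretory duct type, served as a gauge of free RNA: their mitotic UMIs were 0 in 120 wild-type (median 2692 UMIs) and 0 in 224 KO cells (median 2538).

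S-phase members were spread over more cells. At least 2 were found in 166 wild-type cells (9.98%, 8.58 to 11.5%) and in 101 KO cells (4.17%, 3.41 to 5.04%), or in 25 (1.50%) and 15 (0.619%) after thinning. In granular convoluted tubule-like cells the unthinned counts were 1 of 120 and 5 of 224 (2.23%). Both kinds together, at least 2 of each, were in 50 wild-type cells, which is 61.0% of those with 2 mitotic members and 30.1% of those with 2 S-phase members. In the KO library 0 of the 101 cells with 2 S-phase members held 2 mitotic members. This follows from the 0 of all 2423 KO cells and is no separate result. For these 101 cells alone, it allows up to 2.97% by the same floor (exact binomial upper bound 3.59%). At least 5 S-phase members were found in 15 wild-type and 0 KO cells.

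**Figure D2:**
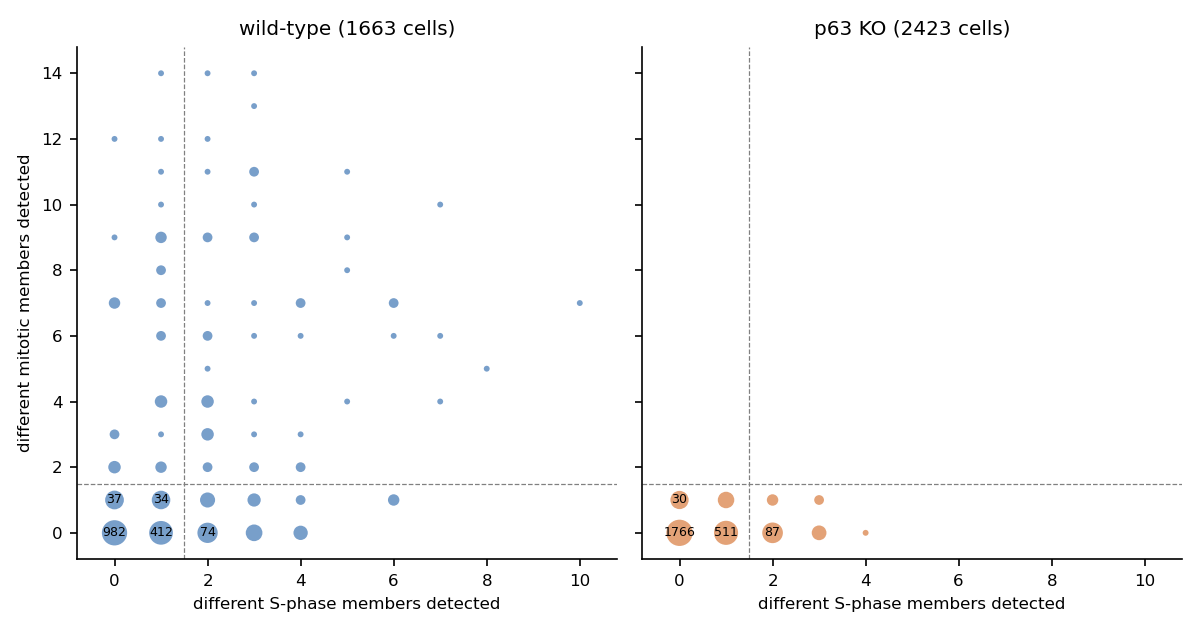
Kept cells by the number of different S-phase members (horizontal axis) and mitotic members (vertical axis) detected in them; point area grows with the log of the number of cells, printed where it is 20 or more, and dashed lines mark at least 2 members. Wild-type cells reach 14 mitotic and 10 S-phase members, KO cells reach 1 and 4.

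Mitotic members were concentrated in the same few wild-type cells, and the S-phase members less so. The 82 cells held 1010 of 1107 mitotic UMIs (91.2%) and 263 of 1046 S-phase UMIs (25.1%). They made up 4.93% of wild-type cells and held 516952 of the 7931377 wild-type UMIs of all genes. They were chosen by the mitotic members, so their high mitotic share is in part built in. With cells ranked by each list's own UMIs, the top 20 wild-type cells held 52.9% of mitotic and 17.1% of S-phase UMIs. To keep a gene from choosing its own cells, each gene's share of wild-type UMIs was also taken over the cells with at least 2 other mitotic members, which is still a choice by mitotic genes. This share was 78.6% to 100% for the 16 mitotic members (median 88.4%), lowest for Plk1 and highest for Ccnb1. For the S-phase members it was 12.3% to 55.1% (median 30.4%): Mcm4 12.3%, Pcna 12.8%, Mcm2 14.4%, Mcm6 15.4% and Mcm7 20.2% at the low end, and Uhrf1 44.4%, Mcm5 48.9% and Rrm2 55.1% at the high end. Pcna and Mcm7, whose intervals lay above wild-type, were among the 5 at the low end, as were Mcm2 and Mcm6, which were lower. These shares were all measured in 1 library that also enters the folds.

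**Figure D3:**
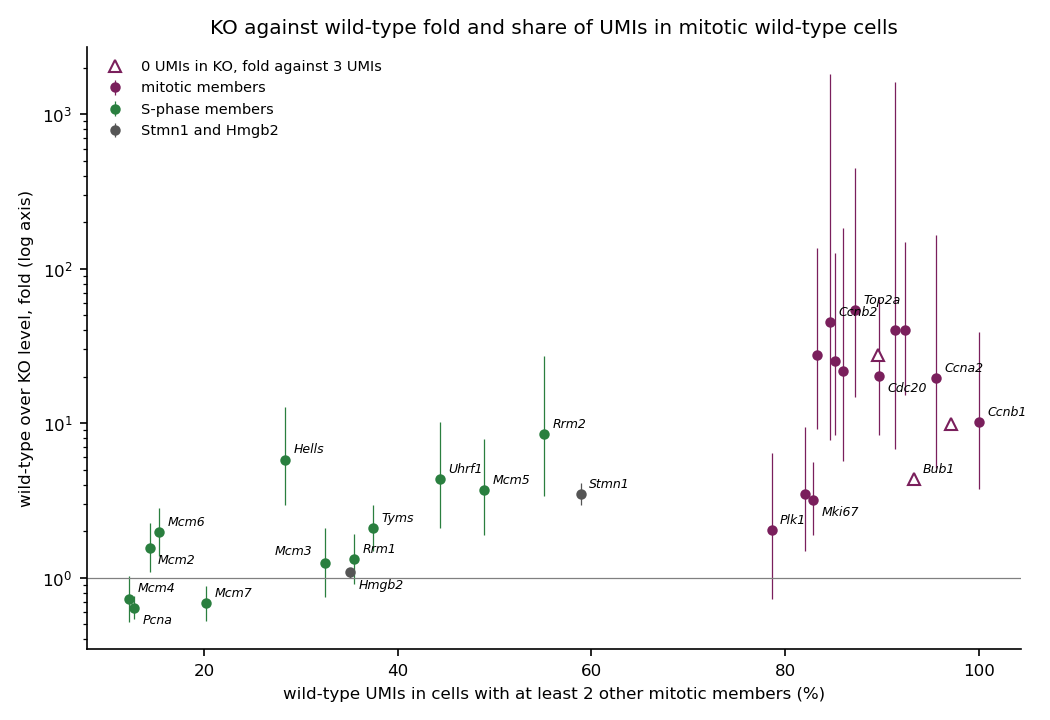
Wild-type over KO level of each gene (log axis, with 95% intervals) against the percentage of its wild-type UMIs found in cells with at least 2 other mitotic members; triangles are genes with 0 KO UMIs, set against 3 counts, and some mitotic points carry no name. Mitotic members lie at 78.6% or more, and Pcna, Mcm4 and Mcm7 lie at 20.2% or less and under 1-fold, with the interval of Mcm4 crossing 1.

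Some pairs of genes were also counted within cells. Of 65 wild-type cells with Top2a, 43 (66.2%) also held Ube2c, and 62 (95.4%) held Stmn1, but 18 (27.7%) held Pcna. Pcna is the only S-phase member given here and was among those with the lowest shares above. It does not stand for the S-phase members. Over all wild-type cells, Ube2c was in 4.09%, Stmn1 in 17.9% and Pcna in 12.3%. Of 27 cells with Ccnb1, 20 (74.1%) held Cdc20. Of 47 cells with Mki67, 25 (53.2%) held Top2a. With the 82 cells left out, the S-phase sum was 1.09-fold higher in the KO library (0.986 to 1.20), an interval that includes no difference, Hells and Rrm2 were still 4.45-fold (2.22 to 9.86) and 4.08-fold lower (1.51 to 13.8), and Pcna was 1.68-fold higher (1.40 to 2.01).

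The 82 cells were deeper than the others, with a median of 5206 against 3355 UMIs, and their median mitochondrial share was 4.59% against 5.22%. The part of depth or of doublets in their number was not tested beyond the thinning; doublets were not called. By markers, 40 of them (48.8%) were basal duct-like, 16 stayed ungated, 9 were intercalated duct-like, 6 acinar-like, 4 macrophage-like, 3 NK-like, 2 red cell-like, and 1 each was endothelial-like and myoepithelial-like. The 6 acinar-like cells had a median of 15601 UMIs against 5076 for other acinar-like cells. Of the 6, 0 held 5 or more Krt14 and Krt17 UMIs, as did 0 of all 267 wild-type acinar-like cells. The gate leaves mixed cells out, so this 0 does not bear on doublets. Among basal duct-like cells, 36 of the 40 and 298 of all 353 held as many. Within the basal duct-like class, cells with 2 mitotic members had Trp63 in 32.5% (18.6 to 49.1%) and the others in 23.6% (19.0 to 28.7%), with overlapping intervals and medians of 5462 and 3490 UMIs.

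Cells were gated into classes by marker genes that include none of the 30, and the class names rest on RNA markers alone. Basal duct-like cells, which express Krt5, Krt14, Krt15 and Krt17, had the highest mitotic level in the wild-type library: 354 CPM (325 to 385) in 353 cells, of which 40 (11.3%) held at least 2 mitotic members. NK-like (297 CPM, 206 to 415, 38 cells) and endothelial-like cells (259 CPM, 169 to 380, 33 cells) did not differ from it beyond counting error, but 18 of 34 NK-like and 25 of 26 endothelial-like UMIs came from 1 cell each. Intercalated duct-like (125 CPM, 102 to 151), macrophage-like (119 CPM, 75.7 to 179) and red cell-like cells (109 CPM, 76.9 to 149) formed a lower level with overlapping intervals, and 26 of the 38 red cell-like UMIs were in 1 cell. Acinar-like cells had 50.2 CPM (41.7 to 60.0), myoepithelial-like cells 36.0 CPM (14.5 to 74.3) and granular convoluted tubule-like cells 0 (Poisson upper bound 10.6 CPM).

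The acinar-like level depends on the total it is set against, since the 50 most abundant genes took 76.2% of wild-type acinar-like UMIs and 24.7% of basal duct-like UMIs. With a total that leaves those genes out, basal duct-like cells stood at 471 CPM (432 to 512) and the order of the next classes changed: red cell-like cells stood at 252 CPM (178 to 345), acinar-like cells at 211 (175 to 252), intercalated duct-like cells at 172 (141 to 209) and macrophage-like cells at 162 (103 to 243). Acinar-like cells, below the other 3 on the full total, then overlapped all of them.

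Few KO cells passed the basal duct-like gate: 9 cells (0.371% of cells, against 21.2% in wild-type). The gate's markers include Trp63, the targeted gene, and Krt5, which had 663 wild-type and 7 KO UMIs. The number of cells that pass therefore depends in part on the genotype itself. Fewer cells of this type and cells with less marker RNA cannot be told apart here. The 9 KO cells had 0 mitotic UMIs and 3 S-phase UMIs. Against the floor the wild-type mitotic level was 3.91-fold higher, with an interval that begins at 3.17. A wider gate, set after seeing the data, took basal duct-like or ungated cells with at least 5 Krt14 and Krt17 UMIs together, and gave 358 wild-type and 47 KO cells. Their mitotic level was 312 CPM (285 to 340) in wild-type and 5.93 CPM (1 UMI) in KO cells, 52.6-fold lower (9.40 to 2081). Their S-phase level was 250 CPM against 148 CPM, 1.69-fold lower (1.13 to 2.64).

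Outside the basal duct-like class, the mitotic level was lower in the KO library in acinar-like cells (12.0-fold, 4.01 to 59.1), intercalated duct-like cells (9.34-fold, 3.88 to 29.4) and ungated cells (24.3-fold, 13.9 to 46.4). With the wild-type cell richest in mitotic UMIs left out of each class, a step added after seeing the data, the interval became 2.64 to 39.7 in acinar-like, 2.45 to 19.1 in intercalated duct-like and 11.7 to 39.3 in ungated cells, all still above 1. In 4 other classes leaving out that cell made the difference smaller or ended it. Red cell-like cells went from 5.48-fold lower (1.97 to 21.1) to 1.76-fold (0.532 to 7.47), and macrophage-like cells from 2.57-fold (1.33 to 5.05) to 1.92-fold (0.932 to 3.96), so that both intervals then include no difference. Endothelial-like cells went from 22.8-fold (9.19 to 67.8) to 1 wild-type UMI against 6 KO UMIs, and NK-like cells from 25.7-fold (4.31 to 1044) to 12.6-fold (1.95 to 527). In macrophage-like cells 13 of the 18 KO UMIs were Mki67. In myoepithelial-like cells, with 7 and 3 UMIs, the 3.33-fold lower level had an interval that begins at 0.761 and so includes no difference. KO levels ran from 0 in granular convoluted tubule-like and ionocyte-like duct cells to 46.5 CPM (27.5 to 73.5) in macrophage-like cells.

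With all cells of a class, the S-phase folds lay nearer to 1 than the mitotic folds in each class that had both. The difference of the folds was not tested. With the wild-type cell richest in mitotic UMIs left out, this did not hold in endothelial-like cells. Their mitotic fold, wild-type over KO, was then 0.901 (0.0196 to 7.42), beside 0.710 for S phase with all cells. In macrophage-like cells the mitotic fold was then 1.92, close to the S-phase fold. S-phase levels were lower in the KO library in macrophage-like cells, at 129 against 234 CPM (1.81-fold, 1.18 to 2.76), in intercalated duct-like cells, at 118 against 174 CPM (1.48-fold, 1.05 to 2.12), and in ungated cells (1.23-fold, 1.03 to 1.47). Elsewhere the intervals included no difference: 1.10-fold lower in acinar-like cells (0.697 to 1.81), 1.29-fold higher in granular convoluted tubule-like cells (0.824 to 2.06), 1.41-fold higher in endothelial-like cells (0.767 to 2.83) and 1.14-fold higher in myoepithelial-like cells. In the KO library, NK-like cells had 231 CPM (141 to 357), endothelial-like cells 169 CPM (135 to 207), and 7 other classes lay between 111 and 148 CPM with overlapping intervals. Red cell-like (59.5 CPM, 30.7 to 104) and acinar-like KO cells (33.5 CPM, 21.4 to 49.8) were lower. Granular convoluted tubule-like cells, at 86.0 CPM in wild-type and 111 CPM in KO, held S-phase members with no mitotic UMI at all.

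**Figure D4:**
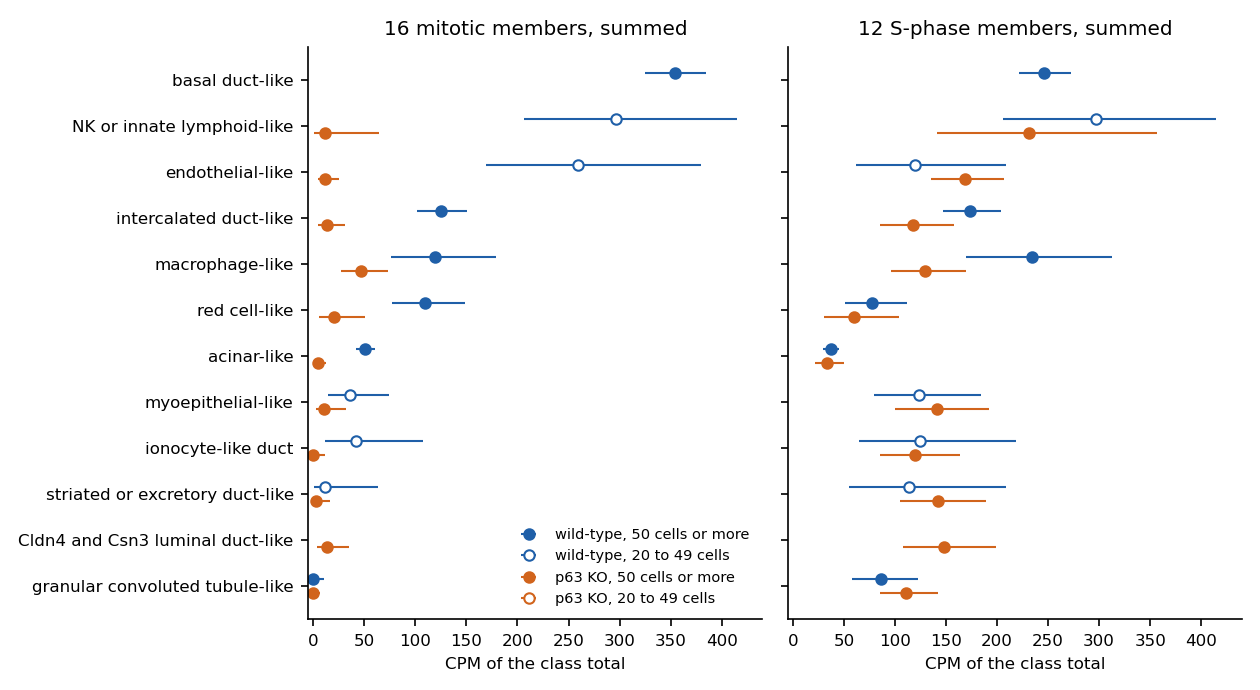
Summed level of the 16 mitotic (left) and 12 S-phase members (right) by marker-gated class, in CPM of the class total with 95% Poisson intervals; open points are classes of 20 to 49 cells, and classes under 20 cells, such as the 9 KO basal duct-like cells, are not drawn. Mitotic levels of KO classes stay at or under 46.5 CPM, and S-phase levels of the libraries overlap in most classes.

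Stmn1 and Hmgb2 behaved differently from each other. Stmn1, which takes microtubules apart and is high in dividing cells, had 718 wild-type and 179 KO UMIs, 90.5 CPM (84.0 to 97.4) against 26.0 CPM (22.4 to 30.2), 3.48-fold lower (2.95 to 4.12). Of its wild-type UMIs, 58.9% were in cells with 2 mitotic members; without those cells it was 1.53-fold lower (1.26 to 1.85). By class, wild-type Stmn1 was highest in basal duct-like (230 CPM, 207 to 255) and NK-like cells (184 CPM, 114 to 281) and lowest in granular convoluted tubule-like cells (2 UMIs). It passed the size rule within intercalated duct-like cells, at 102 against 24.0 CPM (4.25-fold lower, 2.14 to 9.61), where 2.03% of 3303 genes did so in that direction.

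Hmgb2, a chromatin protein that bends DNA, was more widely expressed, in 44.7% of wild-type and 36.8% of KO cells. Its 1622 and 1300 UMIs gave 205 CPM and 189 CPM, 1.08-fold lower in the KO library with an interval that ends at 1.16 and begins just above no difference, or 1.31-fold lower with TMM scaling (1.22 to 1.41). Without the 82 mitotic wild-type cells it was 1.33-fold higher in the KO library (1.23 to 1.45), so its direction depends on them. It was lower in acinar-like wild-type cells (32.4 CPM) than in acinar-like KO cells (66.9 CPM), also when the 50 most abundant genes were left out of the total (136 and 246 CPM), and in the other compared classes of that size the intervals of its ratio included no difference.

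**Figure D5:**
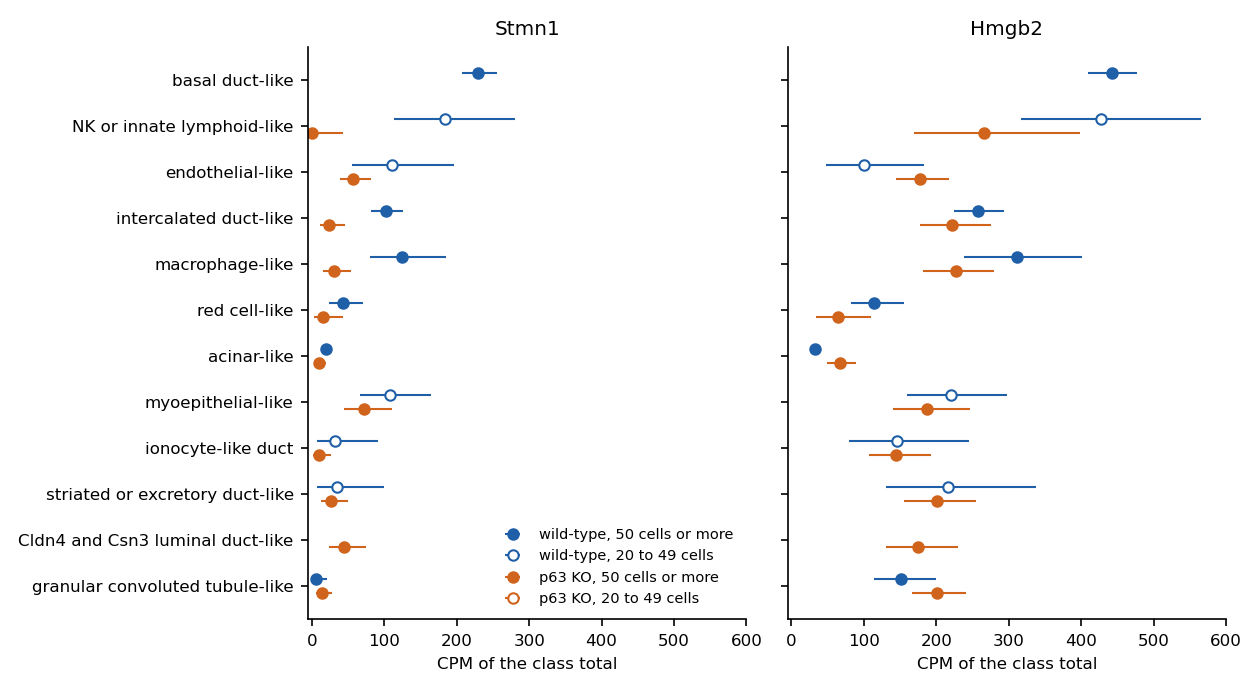
Level of Stmn1 (left) and Hmgb2 (right) by marker-gated class, in CPM of the class total with 95% Poisson intervals, drawn as for the summed members. Basal duct-like wild-type cells lead both panels, at 230 and 442 CPM. The gap in CPM between the libraries is smaller for Hmgb2 than for Stmn1 in some classes, such as intercalated duct-like cells. It is larger in others, such as endothelial-like cells.

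Lists of other genes in the same pathways, also chosen with earlier results of these data known, gave the surroundings of the 30. Of 57 other mitosis genes in the tables, 24 had the 50 UMIs that the size rule needs, and 11 passed lower in the KO library and 0 higher, where 2.49% of all 10285 such genes passed lower and 6.72% higher. They had a median log2 ratio of -0.27 over those with at least 10 UMIs, beside 0.12 over all 13147 such genes. Cks1b, a subunit of cyclin-dependent kinases, had 273 and 31 UMIs (7.63-fold lower, 5.25 to 11.5), Cdca3, a trigger of mitotic entry, had 95 and 2 (41.2-fold, 11.1 to 345), Spc25, of the kinetochore, had 90 and 11 (7.09-fold, 3.78 to 14.7), and Smc2, of condensin, had 115 and 16 (6.23-fold, 3.68 to 11.3). Among the 4 with the most UMIs none passed: Cks2, a relative of Cks1b, had 512 and 196 UMIs (2.26-fold lower, 1.92 to 2.68), Pttg1, which encodes securin, 409 and 449, Bub3, a checkpoint protein, 244 and 271, and Smc4, of condensin, 224 and 136.

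Of 49 other replication genes, 30 had 50 UMIs, and 4 passed lower and 0 higher, beside the same 2.49% and 6.72%, with a median of -0.03. Those that passed were Tk1, a thymidine kinase (55 and 3 UMIs, 15.9-fold lower, 5.16 to 79.4), Dtl, which marks licensing factors for removal (50 and 10, 4.33-fold), Prim1, of primase (67 and 14, 4.15-fold), and Dut, which removes dUTP (397 and 132, 2.61-fold). Slbp, which binds histone messages, had 429 and 446 UMIs, Nasp, a histone chaperone, 215 and 212, and Usp1, a deubiquitinase of DNA repair, 168 and 188; none of these passed.

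Of 22 chromatin and tubulin genes linked to proliferation, 18 had 50 UMIs, and 1 passed lower and 0 higher, a share near the background, with a median of -0.09. Tuba1b, an alpha-tubulin, passed with 1323 and 517 UMIs (2.22-fold lower). The richest genes went both ways without passing: Tubb5, a beta-tubulin, was 2.02-fold lower (1.85 to 2.20) and the histone gene H2afz 1.32-fold lower (1.26 to 1.39), while the chromatin genes Hmgb1 and Dek were 1.23-fold (1.16 to 1.29) and 1.45-fold higher (1.34 to 1.58).

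Genes of quiescence and arrest had a median of 0.40 over the 20 of 21 with at least 10 UMIs, beside 0.12 over all genes. Of the 19 with 50 UMIs, 3 passed higher and 0 lower, where 6.72% of all genes passed higher. Cdkn1a, which encodes the p21 inhibitor, had 1182 wild-type and 2595 KO UMIs (2.53-fold higher in the KO library, 2.36 to 2.72). Rbl2, a retinoblastoma relative of the DREAM repressor, had 51 and 279 (6.31-fold higher, 4.67 to 8.69), and Lin52, of the MuvB core, had 31 and 92 (3.43-fold higher, 2.26 to 5.33). With TMM scaling, which moved the median over all genes by -0.12, the list's median was 0.23 and only Rbl2 passed (5.22-fold higher, 3.86 to 7.18). That share of the list is near the 6.72% of all genes with plain totals. The share of all genes with TMM scaling was not computed. Cdkn1a then gave 2.09-fold (1.95 to 2.24). Btg1 and Btg2, growth-restraining early response genes, were 1.59-fold and 1.55-fold higher and did not pass, and Gadd45a, a stress response gene, gave 0.998-fold (0.907 to 1.10).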

How the data were processed

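Single-cell 3' libraries of submandibular gland were compared, 1 wild-type and 1 p63 KO. The files deposited by the authors are tables of raw UMI counts, Ensembl genes by barcodes. The submitters' processing notes list bcl2fastq 2.19.1, Cell Ranger 2.1.0 and Seurat 3.1.2, with mm10 as the genome build and no role for any tool. The choice of barcodes is not stated; the shallowest kept cell held 2175 UMIs in wild-type and 1077 in KO. GENCODE M21 (GRCm38) gave symbols to 27645 of 27998 genes; 353 kept their identifier.

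Cells needed 200 genes and less than 20% mitochondrial UMIs. UMIs were summed per library or class, and CPM were taken of the total. A gene passed the size rule with at least 50 UMIs over both libraries and an interval of the ratio beyond 2-fold. For log2 ratios, 10 CPM were added to each level. Classes came from a gate: marker z-scores of log counts per 10000 UMIs, capped at 5, over markers with at least 20 UMIs. A cell took the class with the highest mean score if it was over 0.5, led by over 0.25 and had 2 markers detected; 20 marker lists were scored and at least 3 usable markers were needed. This scoring rule was set after seeing the data; other cells stayed ungated, and doublets were not called. Fold floors are 3 counts. The procedure was tested on simulated counts for this comparison (10274 genes): 199 of 200 genes changed 4-fold were recovered (99.5%), with 0 false calls. These counts were independent Poisson draws, and the changed genes were taken from those with at least 200 UMIs over both libraries. Every mitotic member had fewer UMIs, and these were clustered in few cells. The simulation therefore does not show how the rule performs for the mitotic members.

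All 30 genes are named, and of each other list the 4 richest in UMIs and, by UMIs, those that passed, up to 8 a list. The 30 genes and all lists were chosen with earlier results of these data known. Alternatives were other cell filters, thinning, edgeR 4.0.16 TMM scaling of the totals, other gates and thresholds. Python 3.11.15, numpy 2.4.6, scipy 1.17.1, pandas 2.3.3 and R 4.3.3 were used.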

Additional observations from a re-analysis of the deposited data

How the results depend on the processing

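No paired analysis was possible because each genotype had 1 library and nothing was tested. Over 240 alternative values, 45 main-result alternatives stayed within their counting interval, 26 moved beyond it and 1 reversed; of the other class levels 131 stayed, 37 moved and 0 reversed. The KO over wild-type ratio of the mitotic sum was 0.0615 and became 0.0985 without basal duct-like cells. That of the S-phase sum was 0.873 and became 0.726 with no cell filter, 0.721 with TMM scaling (factors 0.909 and 1.10), 0.755 without the 50 most abundant genes in the total, 0.469 without Pcna, Mcm4 and Mcm7, and 1.10, the reversed direction, without basal duct-like cells. The cause was not tested.

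The wild-type share of cells with mitotic members (4.93%) was 2.29% thinned and 10.3% for at least 1 member; the KO share (0) was 2.06% for at least 1 member. The wild-type S-phase share (9.98%) was 11.8% at 500 genes and 10% mitochondrial UMIs, 1.50% thinned, 38.1% for at least 1 and 3.85% for at least 3 members. The KO share (4.17%) was 2.54% with no filter, 0.619% thinned, 25.9% for at least 1 and 0.454% for at least 3. In wild-type basal duct-like cells, the mitotic level (354 CPM) was 286 thinned, 471 without the 50 genes in the total 312 with the Krt14 and Krt17 gate and 313 without the cell richest in mitotic UMIs, and the S-phase level (246 CPM) was 218 and 326 under the first 2 of these. Thinning left 1 of 13 members past the size rule, since fewer genes reach 50 UMIs. The median log2 ratio of other replication genes (-0.03) was 0.06 at 50 UMIs, and that of other mitosis genes (-0.27) was -0.54 at 50 UMIs and -0.06 with 50 CPM added.

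With TMM scaling, or without the 50 genes in the total, 14 mitotic and 4 S-phase members had intervals beyond 2-fold lower. The share of all genes beyond 2-fold was not computed under these scalings. Shallower KO cells limit how many members a cell can show; in thinned cells a level near 1 UMI shows no change.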

Other observations

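Among the barcodes left out by the filter, 3 of 307 wild-type (0.977%, 0.202 to 2.83%) and 3 of 2303 KO barcodes (0.130%) held at least 2 different mitotic members, so the KO library did hold a few such barcodes outside the kept cells. At least 2 S-phase members were found in 5 (1.63%) and 19 (0.825%) of them. All 4 Ube2c UMIs of the kept KO cells were in red cell-like cells.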
